A study of Mus musculus with 15 samples.

Results

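Antibody variable segments were followed in the submandibular gland, a salivary gland, of 15 mice. A segment was taken as a member when its gene name begins with Ighv, Igkv or Iglv in the deposited FPKM table and when it has at least 10 counts in at least 3 of the 15 libraries. This left 68 members, 16 heavy chain (Ighv), 49 kappa light chain (Igkv) and 3 lambda light chain (Iglv) segments, out of 180 genes with such names and 32479 genes in all. The groups were 5 NOD/LTJ mice given SJQYD, 5 untreated NOD/LTJ mice (the model group) and 5 untreated ICR mice (the control group), all labelled as wild type. SJQYD is named in the labels by these letters alone, and the labels give no age, sex or dose. NOD mice are inbred and prone to autoimmune infiltration of their salivary glands, and ICR is an outbred stock. Model and control therefore differ in strain as well as in disease, and the contribution of each cannot be told apart. The labels do not say how the mice relate to each other, so p-values measure the spread between these libraries.

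An antibody is built from heavy and light chains, and each chain carries a variable region at its tip and a constant region behind it. In a developing B cell the variable region is cut and joined from a set of V segments and shorter D and J segments, and the light chain comes from either the kappa or the lambda locus. All descendants of that cell keep the chosen segment, so that the segments seen in a tissue depend on which B cell and plasma cell clones contribute RNA. They also depend on the V genes that a strain carries. How far the V genes of NOD/LTJ and ICR mice match the annotated ones was not tested, here or in any comparison with control. Plasma cells, the antibody-secreting stage, hold far more antibody RNA than resting B cells, and in salivary glands most of them make IgA, which the gland exports into saliva. Bulk RNA does not tell more cells from more RNA per cell, here or in any result that follows. It also does not show which V segment was joined to which partner.

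The libraries held 39510018 to 62335235 counts in SJQYD mice, 52746925 to 68694263 in model mice and 54836440 to 63101584 in control mice. The 68 members together had 24 to 5436 counts in a library, so they are a thin layer of deep libraries. A level of 3 counts, taken as the least that could be seen, corresponds to 0.0290 to 0.0840 CPM, that is counts scaled to a common library size after TMM adjustment. Such floors and all intervals for single libraries cover counting error only. Among the 1020 values of members by library, 366 were 0 (35.9%), and 33 were exactly 4, against 12 that were 3 and 12 that were 5, so differences between small counts are not interpreted. The 8 submandibular gland markers together had at least 99586 CPM in every library.

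The V segments lie in 3 clusters, given here on GRCm38, whose GENCODE M21 annotation holds all 180 named genes at the same positions as the deposited table. The 49 Igkv members span chr6:67555497-70704177 and lie on both strands, 18 on the plus strand and 31 on the minus strand. The kappa constant region Igkc follows at chr6:70726435-70726966. The 16 Ighv members span chr12:113597446-115920712 and the 3 Iglv members chr16:19085017-19260859, all on the minus strand. Every member has the annotation type of a V gene, while 10 of the 112 named genes that missed the count threshold are pseudogenes. Many segments are near copies of a neighbour, which limits how far short reads can separate them. Of the 68 members 37 have another V gene at 95% identity or more over the coding sequence, and 13 share over 50% of their 50-base windows with another V gene.

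Stretches of 300 coding bases, from the GENCODE M21 transcripts on GRCm38 and written 5′ to 3′, show how close the nearest copies are for 4 segments on which the comparisons turn. Each stretch is the one with the most differing bases, and capitals mark the bases that differ within a pair. Igkv6-20 at chr6:70335841-70336507 and Igkv6-29 at chr6:70138462-70139110, both on the minus strand, differ at 5 of 347 coding bases, all of them within bases 45 to 344.
Igkv6-20: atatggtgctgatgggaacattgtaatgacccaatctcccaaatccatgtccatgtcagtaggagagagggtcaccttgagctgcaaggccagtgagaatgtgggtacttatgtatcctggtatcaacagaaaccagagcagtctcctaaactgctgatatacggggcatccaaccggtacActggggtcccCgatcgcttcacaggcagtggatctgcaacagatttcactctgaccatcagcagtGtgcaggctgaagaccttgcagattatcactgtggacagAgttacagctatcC
Igkv6-29: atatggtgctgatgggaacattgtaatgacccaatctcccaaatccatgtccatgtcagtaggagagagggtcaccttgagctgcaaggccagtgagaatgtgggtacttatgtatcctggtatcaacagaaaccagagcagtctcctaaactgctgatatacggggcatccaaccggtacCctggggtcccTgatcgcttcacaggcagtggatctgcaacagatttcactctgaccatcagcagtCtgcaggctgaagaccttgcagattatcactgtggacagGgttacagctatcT
Igkv4-79 at chr6:69042972-69043505 and Igkv4-78 at chr6:69059690-69060224, both on the minus strand, differ at 13 of 358 bases. Igkv4-78 missed the count threshold, with 28 counts over all libraries against 186 for Igkv4-79. Bases 59 to 358, with 12 of the differences, are shown.
Igkv4-79: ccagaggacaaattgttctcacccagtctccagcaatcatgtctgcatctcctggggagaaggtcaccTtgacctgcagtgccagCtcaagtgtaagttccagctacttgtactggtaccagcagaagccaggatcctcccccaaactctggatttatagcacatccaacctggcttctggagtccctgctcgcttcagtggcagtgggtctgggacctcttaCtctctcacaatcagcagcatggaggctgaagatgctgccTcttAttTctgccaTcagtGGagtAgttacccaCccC
Igkv4-78: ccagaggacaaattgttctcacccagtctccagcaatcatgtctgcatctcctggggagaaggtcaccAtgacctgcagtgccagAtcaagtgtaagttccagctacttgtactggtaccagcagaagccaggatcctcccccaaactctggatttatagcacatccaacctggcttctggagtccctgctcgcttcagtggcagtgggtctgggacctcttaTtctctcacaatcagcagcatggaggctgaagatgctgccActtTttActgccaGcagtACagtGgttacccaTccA
Igkv10-95 at chr6:68680379-68680848 on the plus strand and Igkv10-94 at chr6:68704508-68704978 on the minus strand differ at 10 of 347 bases, all within bases 1 to 300.
Igkv10-95: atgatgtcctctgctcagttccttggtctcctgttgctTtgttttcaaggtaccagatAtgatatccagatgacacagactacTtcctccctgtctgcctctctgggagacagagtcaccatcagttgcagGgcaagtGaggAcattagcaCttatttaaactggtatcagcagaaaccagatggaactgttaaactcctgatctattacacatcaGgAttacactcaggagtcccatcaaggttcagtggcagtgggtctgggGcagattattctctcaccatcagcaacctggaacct
Igkv10-94: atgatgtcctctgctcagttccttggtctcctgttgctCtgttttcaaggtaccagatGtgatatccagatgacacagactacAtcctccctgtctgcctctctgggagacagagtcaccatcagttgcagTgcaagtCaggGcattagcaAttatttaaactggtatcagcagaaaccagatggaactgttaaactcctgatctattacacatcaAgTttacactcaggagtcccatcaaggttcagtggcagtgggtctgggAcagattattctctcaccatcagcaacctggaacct
Iglv1 at chr16:19085017-19085500 and Iglv2 at chr16:19260401-19260859, both on the minus strand, differ at 11 of 351 bases, 9 of them within bases 19 to 318.
Iglv1: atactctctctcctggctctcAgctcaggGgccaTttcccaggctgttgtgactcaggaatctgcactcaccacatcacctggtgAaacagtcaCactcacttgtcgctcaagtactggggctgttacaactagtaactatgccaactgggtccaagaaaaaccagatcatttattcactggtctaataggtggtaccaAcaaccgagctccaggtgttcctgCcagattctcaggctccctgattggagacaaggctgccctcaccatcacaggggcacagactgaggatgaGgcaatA
Iglv2: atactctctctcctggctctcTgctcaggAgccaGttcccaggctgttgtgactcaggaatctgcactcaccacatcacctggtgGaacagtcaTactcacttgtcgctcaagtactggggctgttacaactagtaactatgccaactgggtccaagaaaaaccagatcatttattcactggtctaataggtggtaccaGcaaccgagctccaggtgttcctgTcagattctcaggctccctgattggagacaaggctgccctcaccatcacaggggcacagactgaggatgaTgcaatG
The differing bases are few, so a read can fall where both members of a pair are identical. Igkv8-24, described further on, shares no 50-base window with another V gene and has 91.0% identity to its closest relative, Igkv8-30.

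The count threshold itself leans towards the NOD/LTJ libraries, which outnumber the ICR ones. Of the 68 members 60 meet it on the 10 NOD/LTJ libraries alone and 7 on the 5 control libraries alone. Counts in control mice make up 13.4% of the counts of members and 49.9% of the 4786 counts of genes left out. Just inside the threshold are Igkv4-50 and Ighv1-64, the third highest count of each being 10. Just outside are Igkv4-91 and Ighv1-26, the third highest count of each being 9. Igkv4-91 had 874 counts in all, 835 of them in control 4, where it took 22.8% of the counts of all named Igkv genes (exact 95% interval 21.5% to 24.2%). In control 4 the genes left out held 49.5% of all V counts, against 1.73% to 32.5% in the other libraries, and Igkv6-17 (328 counts) and Igkv4-59 (222 counts) were further large contributors there. These 2 were singled out after their values were seen. Of the 112 genes left out 79 had over 50% of their counts in 1 library. Group differences among the members are therefore a description of segments that the threshold admitted, most of which it admitted through the NOD/LTJ libraries. Shares of V counts, diversity and overlap given below are over members unless stated otherwise.

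Kappa segments made up most V segment RNA in every group, and the SJQYD and model groups overlapped widely. The summed Igkv level was 40.0, 10.8, 37.9, 11.8 and 23.2 CPM in SJQYD 1 to 5, 32.3, 19.2, 14.4, 62.2 and 15.4 CPM in model 1 to 5, and 5.46, 3.22, 0.443, 33.0 and 19.8 CPM in control 1 to 5. Control 4 and control 5 lay inside the NOD/LTJ range, and the other 3 control libraries lay below every NOD/LTJ library. The summed Iglv level was 7.75, 3.62, 6.61, 4.02 and 9.28 CPM in SJQYD 1 to 5, 8.21, 6.61, 2.93, 12.7 and 3.38 CPM in model 1 to 5, and 0.140, 0.162, 0, 4.09 and 1.81 CPM in control 1 to 5. Here only control 4 reached into the NOD/LTJ range. The summed Ighv level was low throughout, at 0.321 to 4.43 CPM in SJQYD mice, 0.599 to 8.86 CPM in model mice and 0.148 to 4.58 CPM in control mice. Model 4 was the highest library for all 3 chains and control 4 the highest control library. Model 4 was also the highest library for 24 members and SJQYD 1 for 22.

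**Figure D1:**
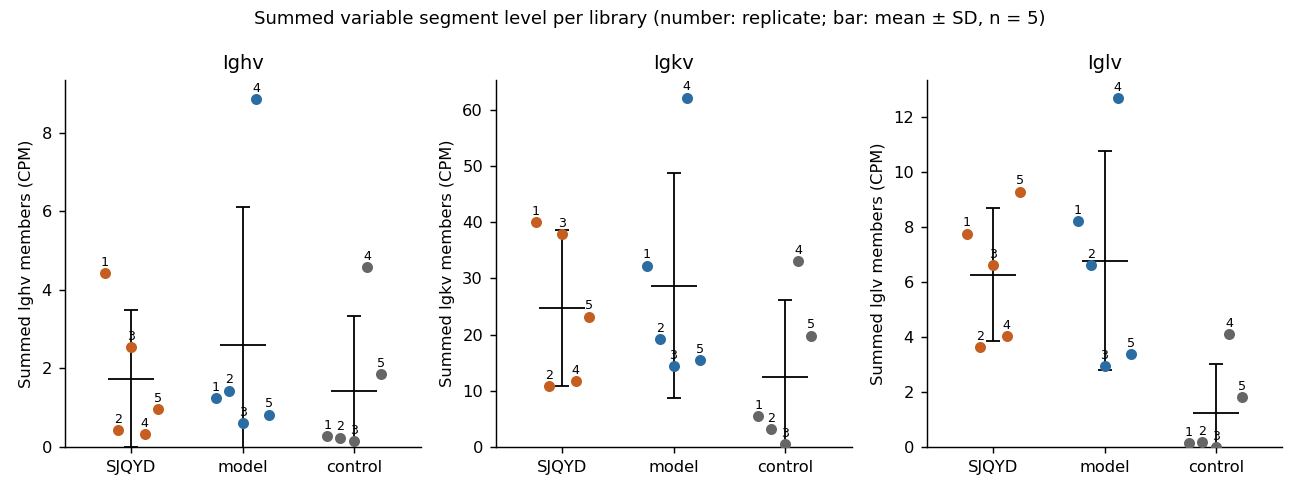
Summed level of the Ighv, Igkv and Iglv members in each library, in CPM on a linear axis from 0, for the SJQYD, model and control groups. Points carry the replicate number and bars show the mean ± SD (n = 5). Model 4 is highest in each panel, at 8.86, 62.2 and 12.7 CPM, and control 4 is the highest control library.

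Between the model and control groups 43 of the 68 members had enough counts to be tested, 37 Igkv, 3 Ighv and 3 Iglv. Of these, 3 rose in model mice and none fell (edgeR quasi-likelihood test, Benjamini-Hochberg adjusted p under 0.05 over 18136 genes), all 3 of them kappa segments. Over all genes tested 5.07% were called, 2.57% higher and 2.50% lower. For 37 of the 43 segments the fold change was positive, and the median log2 fold change was 1.28, against 0.03 over all genes tested. An unadjusted p under 0.05 was reached by 11 of the 43 segments, against 21.9% of all genes. As most segments entered through the NOD/LTJ libraries, these counts describe the members and say nothing of V segments in general.

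Igkv6-20, the kappa segment with the highest level per length (mean 3.92 FPKM over the 15 libraries), had the lowest adjusted p of the 43. It had 4.53, 1.24, 1.03, 4.56 and 1.44 CPM in model 1 to 5, against 0.224, 0.234, 0, 0.507 and 0.247 CPM in control 1 to 5. Every model library lay above every control library. The log2 fold change was 3.37 ± 0.72 (SE, edgeR adjusted p = 0.0169). Without control 1 the call was lost (edgeR adjusted p = 0.0509). Igkv6-29, its near copy, had 198 counts in all, against 1519 for Igkv6-20, and how reads common to the pair were assigned was not tested.

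Igkv2-109 had 1.02, 1.33, 0.460, 1.79 and 0.759 CPM in model 1 to 5, against 0.112, 0.162, 0, 0.150 and 0.432 CPM in control 1 to 5. The groups did not overlap, with model 3 only just above control 5. Its log2 fold change was 2.61 ± 0.67 (edgeR adjusted p = 0.0331). The call was lost on leaving out control 1, control 4, model 1, model 2, model 4 or model 5 (edgeR adjusted p of up to 0.0844). Igkv4-79 had 0.201, 0.409, 0, 0.262 and 0.149 CPM in model 1 to 5 and no count in any control library, where the floor of 3 counts per library averages 0.0660 CPM. Its model mean of 0.204 CPM was at least 3.09-fold higher than that floor (edgeR adjusted p = 0.0321), with model 3 also at 0. This call was lost in 7 of the 15 fits that each leave out a library: without control 1, 3, 4 or 5 or model 1, 2 or 5 (edgeR adjusted p of up to 0.0766).

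Igkv6-20, Igkv2-109 and Igkv8-19 were the 3 segments with no overlap between the model and control groups, against 3.05% of all genes that lay wholly higher in model mice. None lay wholly lower, against 2.71% of all genes. Igkv8-19 had 0.812 ± 0.651 CPM in model mice and 0.0675 ± 0.0861 CPM in control mice (SD, n = 5 each), and it did not pass the test (edgeR adjusted p = 0.0769). Its separation rests on 14 counts in model 5 against 11 in control 4. Igkv8-19 was named after its values were seen. Leaving out 1 library moved the number of called segments between 0, without control 1, and 4, without control 5. It was 1 without model 1 and 1 without model 2. The median log2 fold change was 2.15 without control 4 and 0.81 without model 4, the libraries richest in V counts of their groups.

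**Figure D2:**
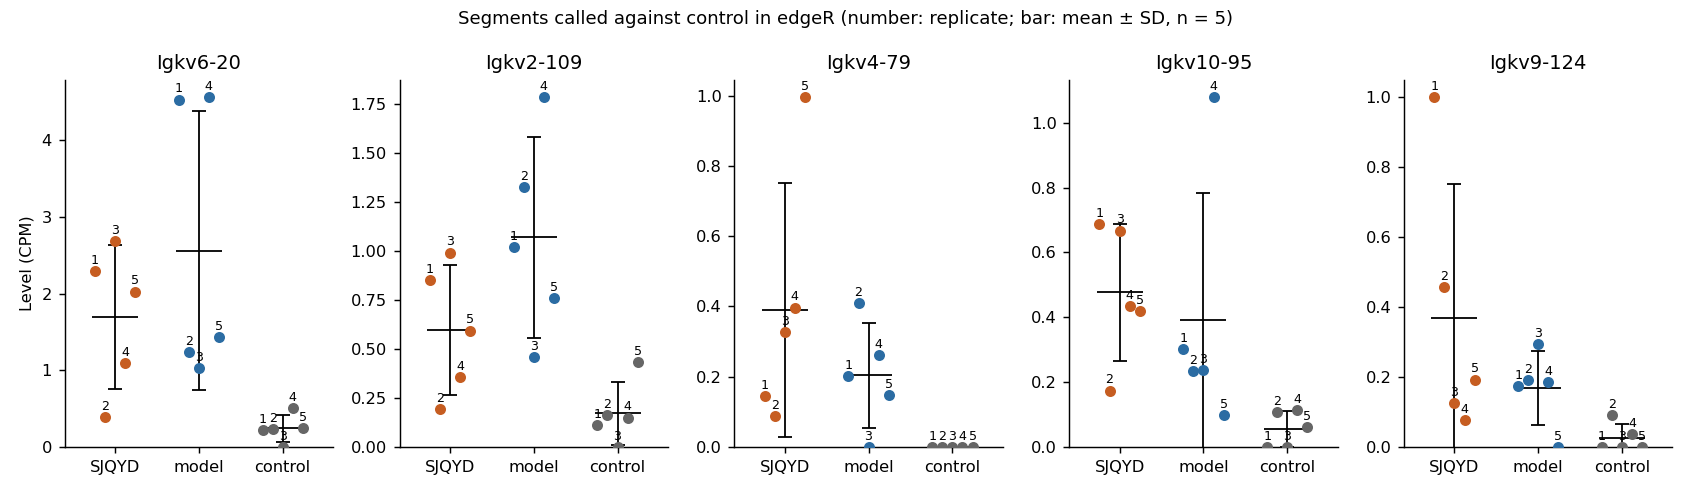
Level of the 5 kappa segments called in either comparison with the control group, in CPM on linear axes from 0, for each library of the SJQYD, model and control groups. Points carry the replicate number and bars show the mean ± SD (n = 5). Igkv4-79 is at 0 in all 5 control libraries, and the control libraries of Igkv6-20 stay at or below 0.507 CPM.

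Set against the same control libraries, the SJQYD group gave 4 segments that rose and none that fell. Over all genes 11.1% were called in this comparison, 5.22% higher and 5.90% lower. As both comparisons use the same 5 control libraries, they are not independent of each other. The fold change was positive for 33 of the 43 segments, with a median of 1.31 on the log2 scale against 0.04 over all genes.

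Igkv4-79 had 0.145, 0.0867, 0.326, 0.396 and 0.996 CPM in SJQYD 1 to 5 and no count in the control libraries. All 5 SJQYD libraries held it, and their mean of 0.390 CPM was at least 5.91-fold higher than the mean control floor (edgeR adjusted p = 0.00981). The call held whichever library was left out, with an edgeR adjusted p of 0.0221 at most. Igkv6-20 had 2.29, 0.390, 2.69, 1.09 and 2.03 CPM in SJQYD 1 to 5. SJQYD 2 lay below control 4, at 0.507 CPM, and the other 4 lay above every control library. The log2 fold change was 2.78 ± 0.71 (edgeR adjusted p = 0.0211), and the call was lost without control 1 (adjusted p = 0.0522) or control 5 (adjusted p = 0.0554).

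Igkv10-95 had 0.687, 0.173, 0.667, 0.434 and 0.419 CPM in SJQYD 1 to 5, against 0, 0.108, 0, 0.113 and 0.0617 CPM in control 1 to 5. The groups did not overlap, and the log2 fold change was 2.96 ± 0.83 (edgeR adjusted p = 0.0307). The call was lost without control 1, 3 or 5 or without SJQYD 1, 3 or 4 (edgeR adjusted p of up to 0.0682). Igkv9-124 had 0.997, 0.455, 0.124, 0.0755 and 0.192 CPM in SJQYD 1 to 5, against 0, 0.0900, 0, 0.0375 and 0 CPM in control 1 to 5. SJQYD 4 lay below control 2. Its log2 fold change was 3.65 ± 1.13 (edgeR adjusted p = 0.0463), a call that was lost in 12 of the 15 fits that each leave out a library, with an adjusted p of up to 0.147. It held without control 2, model 5 or SJQYD 4. Of the segments called in either comparison with control, Igkv4-79, Igkv10-95 and Igkv9-124 reached 10 counts in NOD/LTJ libraries alone. Igkv2-109 did so in control 5 as the sole control library. All of these met the count threshold through the libraries in which they were then called higher. Their calls therefore describe them as members only.

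Segments with no overlap between the SJQYD and control groups numbered 3, Igkv4-79, Igkv10-95 and Igkv3-10, against 5.07% of all genes that lay wholly higher in SJQYD mice. None lay wholly lower, against 5.00% of all genes. The separations rest on small counts in SJQYD 2. It had 8 counts of Igkv10-95, against 6 in control 2 and in control 4. It had 8 of Igkv3-10, against 5 in control 1, and 4 of Igkv4-79, against 0 in control mice. Such margins are not interpreted. Igkv3-10, named after its values were seen, had 0.651 ± 0.515 CPM in SJQYD mice and 0.0280 ± 0.0626 CPM in control mice (SD, n = 5 each), and it missed the threshold (edgeR adjusted p = 0.0539). Without control 1 the number of called segments was 1. It was 2 without control 3, without SJQYD 1 or without SJQYD 3, and 6 without control 4. The median log2 fold change was 0.71 without SJQYD 1, 2.03 without control 5 and 1.97 without control 4.

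No segment passed the test between the SJQYD and model groups. None of the 43 was called, against 2.75% of all genes (1.91% higher and 0.838% lower), and none had an unadjusted p under 0.05, against 16.2% of all genes. DESeq2 called 0 segments too. The median log2 fold change was -0.13, close to -0.03 over all genes, with 16 segments positive and 27 negative. Without model 4 the median turned to 0.58. Single segments ranged from -2.44 to 1.81 on this scale, so these data do not show that the groups are alike.

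Igkv8-24 was the only 1 of the 43 tested segments whose levels did not overlap between SJQYD and model. That is close to the share of all genes that lay wholly lower in SJQYD mice, 2.29%, so it does not set the segments apart. No segment lay wholly higher there, against 3.21% of all genes. Igkv8-24 had 0.852, 0, 0.419, 0.189 and 1.08 CPM in SJQYD 1 to 5, 2.16, 1.36, 1.62, 7.60 and 1.32 CPM in model 1 to 5, and 0, 0, 0, 2.03 and 0.802 CPM in control 1 to 5. All SJQYD libraries were below all model libraries, and the control libraries spanned both. The log2 fold change of SJQYD over model was -2.44 ± 1.29, which did not pass the test (edgeR adjusted p = 0.390). As a share of the Igkv counts, Igkv8-24 took 0% to 4.67% in the SJQYD libraries and 6.68% to 12.2% in the model libraries. These shares come from the same counts, so their lack of overlap is not separate evidence. It was the most used kappa segment of model 3, at 11.2% (exact 95% interval 9.35% to 13.3%), and of model 4, at 12.2% (11.2% to 13.3%).

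Lambda segments are few in mice, and their share of the light chain V counts did not overlap between the NOD/LTJ and control libraries. Iglv members held 16.2%, 25.1%, 14.8%, 25.5% and 28.6% of the light chain V counts in SJQYD 1 to 5, 20.3%, 25.7%, 16.9%, 16.9% and 18.0% in model 1 to 5, and 2.50%, 4.79%, 0%, 11.0% and 8.37% in control 1 to 5. SJQYD 5 was highest, and control 4 was the control library nearest to the NOD/LTJ range. Exact 95% intervals ran from 13.6% to 16.2% for SJQYD 3, the lowest NOD/LTJ library, and from 9.67% to 12.5% for control 4, the highest control library. With all named V genes counted in place of members, the lowest NOD/LTJ library stood at 14.5%, the highest control library at 8.21% and control 4 at 5.62%. Control 3 had 18 light chain V counts, all kappa, which allows a lambda share of up to 18.5%. The share is a score over members and is given without a test.

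Iglv1 carried most of the lambda RNA. It had 6.72, 2.56, 4.75, 3.55 and 8.14 CPM in SJQYD 1 to 5, 7.30, 6.09, 2.33, 10.1 and 2.74 CPM in model 1 to 5, and 0.140, 0.126, 0, 4.02 and 0.638 CPM in control 1 to 5. All libraries but control 4 kept the order of NOD/LTJ above control. The log2 fold change was 2.51 ± 0.97 for model over control and 2.36 ± 0.97 for SJQYD over control, neither past the threshold (edgeR adjusted p = 0.151 and 0.137). Without control 4 it was called in both comparisons, with log2 fold changes of 4.61 and 4.46 (edgeR adjusted p = 0.0102 and 0.00565). Iglv2 reached 0.283 to 1.58 CPM in SJQYD mice and 0.149 to 1.05 CPM in model mice, and of the control libraries it was seen in control 5 alone, at 0.823 CPM. Iglv3, the least similar of the 3 with 62.4% identity to Iglv1, reached 0.189 to 0.434 CPM in SJQYD mice, 0 to 1.49 CPM in model mice and 0 to 0.350 CPM in control mice.

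Of the lambda constant regions, Iglc1, to which mouse Iglv1 is usually joined, had 24.4, 8.54, 15.4, 12.6 and 27.1 CPM in SJQYD 1 to 5, 22.3, 26.9, 9.07, 21.7 and 6.24 CPM in model 1 to 5, and 0.0280, 0.504, 0, 3.47 and 1.01 CPM in control 1 to 5. Every SJQYD and model library lay above every control library, SJQYD and model overlapped, and Iglc1 rose in both comparisons with control (log2 fold change 4.06 ± 0.91, edgeR adjusted p = 0.0261 for model; 4.09 ± 0.91, edgeR adjusted p = 0.0137 for SJQYD). Of 11 tested antibody constant regions it alone passed the test. Iglc2 averaged 13.9 ± 4.48 CPM in SJQYD mice, 14.6 ± 4.23 CPM in model mice and 3.12 ± 2.28 CPM in control mice (SD, n = 5 each) and did not pass (edgeR adjusted p = 0.0587 for SJQYD and 0.0775 for model over control). The lambda share of all light chain constant counts was 3.67% to 6.48% in SJQYD mice, 4.17% to 5.80% in model mice and 0% to 12.6% in control mice, with overlap between all groups. Control 2, at 12.6%, had 550 lambda constant counts but 9 lambda V counts.

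**Figure D3:**
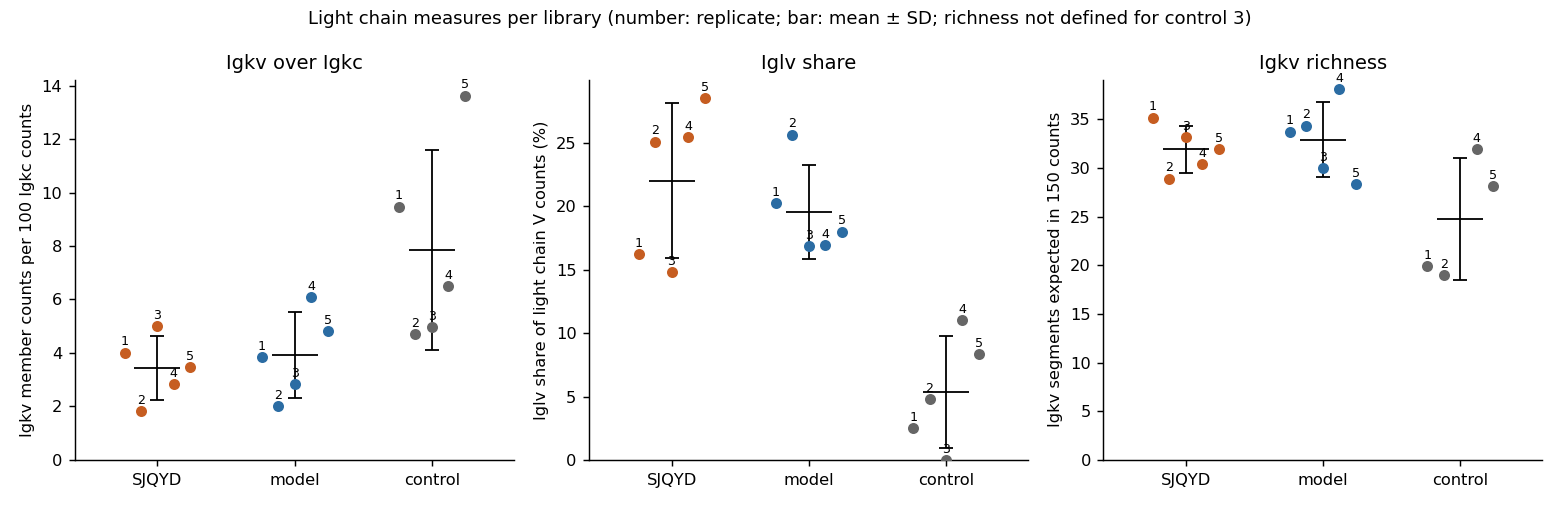
Igkv member counts per 100 Igkc counts, Iglv share of the light chain V counts in percent, and number of Igkv segments expected in 150 counts, for each library of the SJQYD, model and control groups. Points carry the replicate number and bars show the mean ± SD (n = 5, or 4 control libraries for the last panel). The lowest NOD/LTJ lambda share is 14.8% and the highest control share 11.0%, while the other measures overlap.

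Kappa V counts were a small fraction of the constant region counts. Per 100 Igkc counts there were 4.02, 1.82, 5.02, 2.85 and 3.48 Igkv member counts in SJQYD 1 to 5, 3.84, 2.00, 2.84, 6.10 and 4.82 in model 1 to 5, and 9.48, 4.71, 4.97, 6.50 and 13.6 in control 1 to 5. The control libraries were higher, with overlap from control 2, control 3, SJQYD 3, model 4 and model 5. With all named Igkv genes counted, control 4 stood at 13.5 and the control libraries at 4.71 to 13.9, against 1.86 to 5.16 in SJQYD mice and 2.14 to 6.55 in model mice. The difference in Igkc itself was large, at 413 to 996 CPM in SJQYD mice, 320 to 1020 CPM in model mice and 8.92 to 508 CPM in control mice, but did not pass the test against control (edgeR adjusted p = 0.0954 for SJQYD and 0.115 for model). Heavy chain V counts were scarcer still, at 0.0644 to 0.364, 0.112 to 0.755 and 0.216 to 0.999 per 100 heavy chain constant counts in the SJQYD, model and control groups. How reads of joined and mutated V regions were assigned to segments is not given in the sources used here, and its part in these ratios was not tested.

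Each library drew on a broad set of kappa segments, and the leading segment changed from library to library. In the SJQYD group the most used were Igkv8-21 in SJQYD 1 (11.8%, exact 95% interval 10.8% to 12.8%), Igkv1-110 in SJQYD 2 (10.4%, 7.90% to 13.5%), Igkv15-103 in SJQYD 3 (11.2%, 9.95% to 12.5%), Igkv6-20 in SJQYD 4 (9.31%, 7.15% to 11.9%) and Igkv5-45 in SJQYD 5 (14.2%, 12.3% to 16.1%). In the model group they were Igkv6-20 in model 1 (14.0%, 12.6% to 15.5%), Igkv1-110 in model 2 (7.85%, 6.45% to 9.44%), Igkv8-24 in model 3 and model 4, and Igkv5-45 in model 5 (13.8%, 11.7% to 16.2%). In the control group, among members only, Igkv10-96 led in control 1 (19.5%, 14.2% to 25.8%) and control 2 (15.6%, 10.7% to 21.8%). Igkv1-110 led the members in control 4 (15.2%, 13.5% to 16.9%) and Igkv12-44 in control 5 (17.7%, 15.4% to 20.3%). Of the genes left out, Igkv4-58 had 40 counts in control 1, against 38 for Igkv10-96. In control 4 Igkv4-91 had 835 counts and Igkv6-17 had 328, against 267 for Igkv1-110. Igkv4-58 was singled out after its values were seen. Control 3 had 18 Igkv member counts, 8 of them in Igkv15-103. Igkv5-45, Igkv6-20 and Igkv1-110 thus led in both NOD/LTJ groups, and Igkv8-24 led in model libraries alone.

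**Figure D4:**
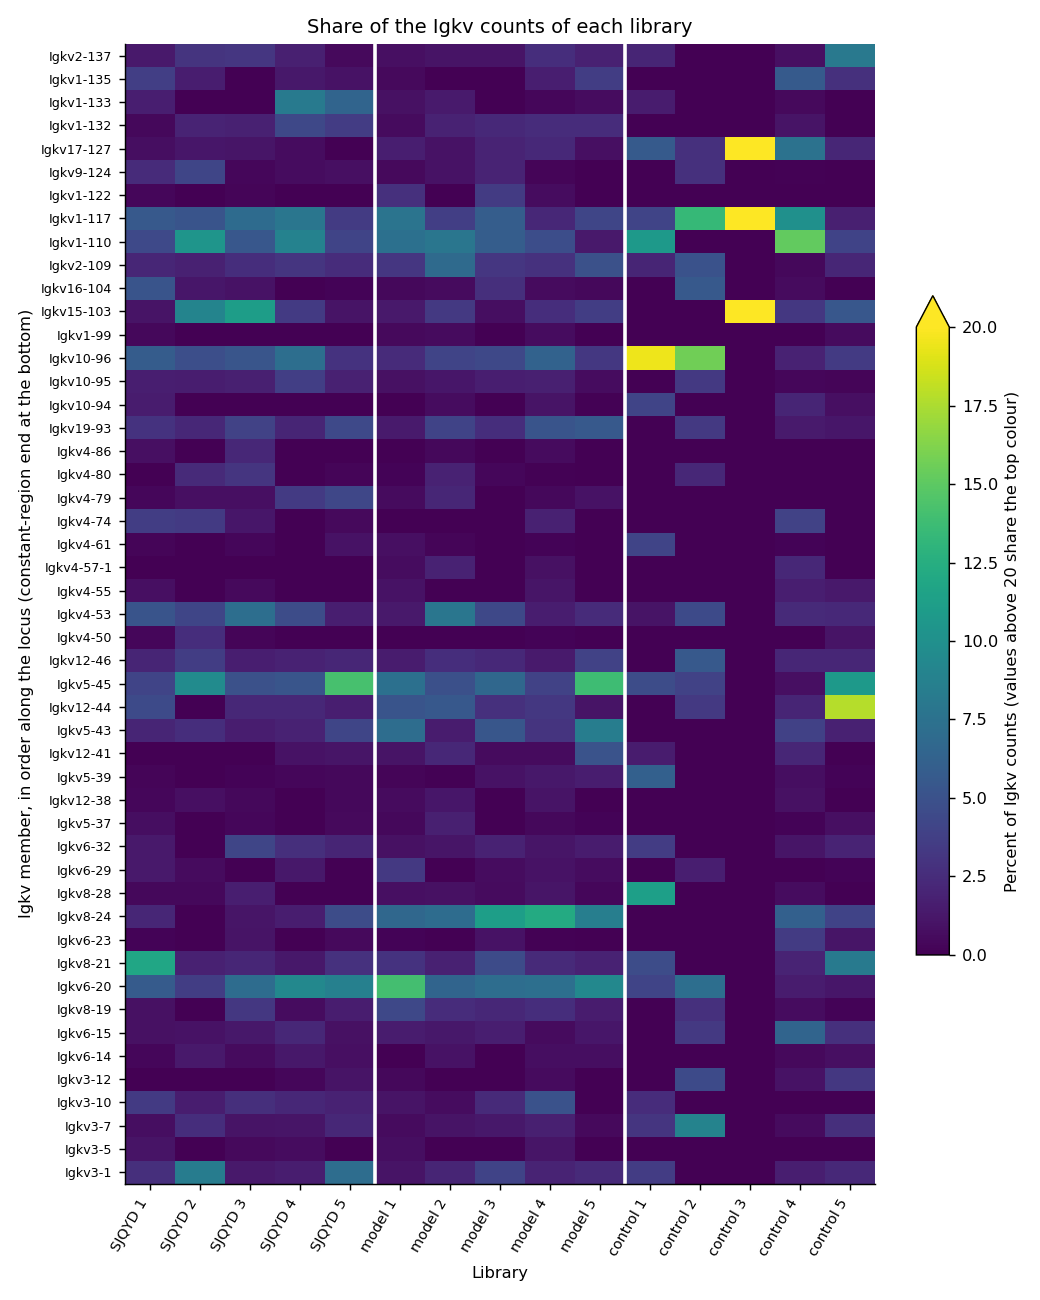
Share of the Igkv member counts taken by each of the 49 Igkv members (rows, in order along the locus) in each library (columns, SJQYD, model and control from left to right), in percent. Values above 20% share the top colour, and control 3 rests on 18 counts. Igkv8-24 is bright across the model columns, at 6.68% to 12.2%, and the control columns are sparser than the others.

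Igkv1-117 was the only member seen in all 15 libraries. It took 3.46% to 7.87% of the Igkv counts in SJQYD mice, 2.20% to 7.66% in model mice and 1.76% to 33.3% in control mice. Igkv17-127, the sole Igkv17 segment among the members, had shares of 0% to 1.20% in SJQYD mice, 0.857% to 2.30% in model mice and 2.18% to 22.2% in control mice. Both control maxima come from control 3, with 6 and 4 of its 18 counts. The next highest control shares were 13.4% for Igkv1-117 and 7.56% for Igkv17-127. The Igkv17-127 share in every SJQYD library lay below every control library, though in CPM the groups overlapped (edgeR adjusted p = 0.259 for SJQYD over control). Summed by family, Igkv1 segments, the most used, held 19.9% ± 6.21, 15.8% ± 3.29 and 20.97% ± 11.18 of the Igkv counts in the SJQYD, model and control groups (SD, n = 5 each). Igkv6 segments held 12.1% ± 3.96, 13.3% ± 3.97 and 8.25% ± 5.19 in the same order of groups, and Igkv5 segments 10.7% ± 5.27, 13.8% ± 6.44 and 6.80% ± 5.46. Igkv8 segments held 7.68% ± 5.18, 15.3% ± 3.05 and 8.10% ± 6.62, and Igkv10 segments 7.62% ± 2.39, 5.69% ± 2.24 and 10.3% ± 10.3. For Igkv8 the SJQYD range of 2.21% to 15.3% overlapped the model range of 12.3% to 18.6%. The control means of these families include control 3.

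The kappa segments were also grouped by position. Igkv members farther from Igkc than the median member held 39.0% to 56.3% of the Igkv counts in SJQYD mice, 34.6% to 46.3% in model mice and 34.2% to 59.0% in the control libraries other than control 3. Segments on the plus strand, which have the orientation of Igkc and join by deletion, whereas those on the minus strand join by inversion, held 36.8% to 49.8%, 27.7% to 36.7% and 35.4% to 48.6% in the same groups. The SJQYD and model ranges of the plus-strand share lay next to each other without overlapping, a description given without a test.

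Diversity was summarised by the effective number of segments, the number of equally used segments that would give the same Shannon entropy. For Igkv it was 29.6, 23.1, 27.3, 24.5 and 25.1 in SJQYD 1 to 5, 25.2, 28.7, 25.3, 31.8 and 21.6 in model 1 to 5, and 15.2, 15.7, 2.89, 23.9 and 20.4 in control 1 to 5. SJQYD and model overlapped throughout. Control 4 lay inside the NOD/LTJ range, and the other control libraries lay below it. Low counts lower this measure, so the number of segments expected in a draw of 150 Igkv counts was also computed. It was 28.9 to 35.2 in SJQYD mice, 28.4 to 38.1 in model mice, and 19.9, 19.0, 31.9 and 28.1 in control 1, 2, 4 and 5, with control 3 too shallow. At equal depth control 1 and control 2 lay well below every NOD/LTJ library, control 5 just below the lowest and control 4 among them. The depth was chosen after the data were seen.

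Among the 49 Igkv members, libraries of the NOD/LTJ groups also resembled each other more in which segments they used. Overlap was taken as the sum over segments of the smaller of 2 shares, so that 100% would be identical use. Between 2 SJQYD libraries its median was 61.5% (56.6% to 68.3%, 10 pairs), between 2 model libraries 66.2% (63.2% to 72.3%, 10 pairs) and between 2 control libraries 35.9% (32.1% to 46.8%, 6 pairs, without control 3). Between SJQYD and model libraries it was 62.5% (49.1% to 70.1%, 25 pairs). That median was close to the one within SJQYD and below the lowest pair of model libraries, at 63.2%. Between SJQYD and control it was 47.3%, and between model and control 49.2%. Pairs share libraries and a shallow library overlaps less with any other, so no test was made. Most of the 68 members were admitted through the NOD/LTJ libraries, and the part of this in the difference from control pairs was not tested. Control 4 and control 5, the deeper control libraries with 1760 and 964 Igkv member counts, overlapped by 46.8%, below the lowest NOD/LTJ pair at 49.1%. All named Igkv genes had 3660 and 984 counts in these 2 libraries, and overlap over all named genes was not computed.

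**Figure D5:**
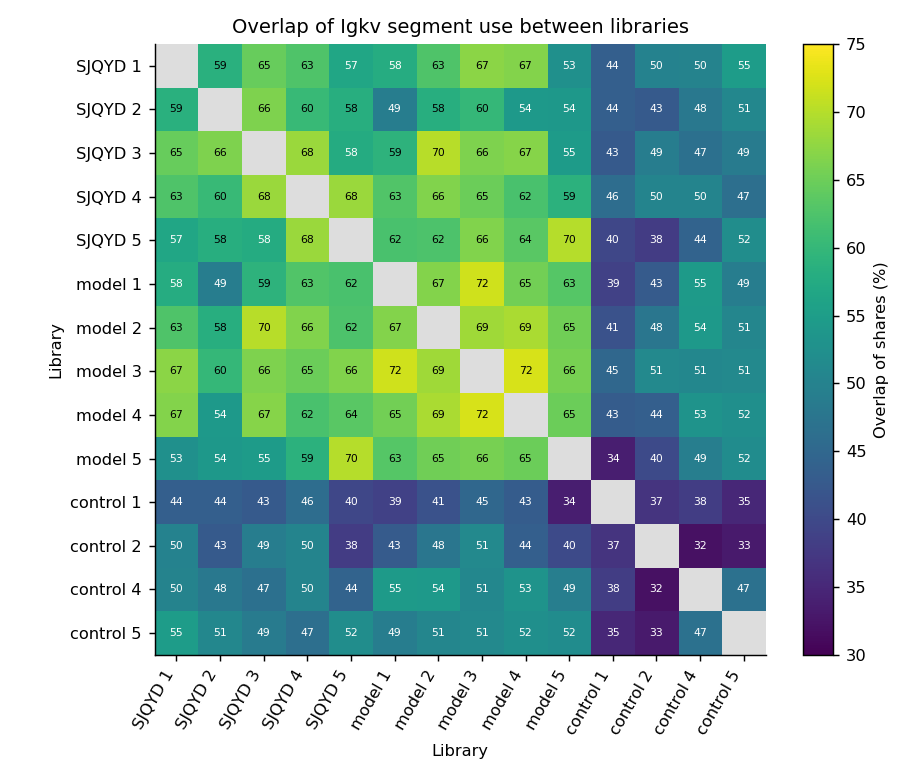
Overlap of use of the Igkv members for every pair of libraries except control 3, in percent (sum over members of the smaller share), with libraries ordered SJQYD, model and control. Pairs of NOD/LTJ libraries lie between 49.1% and 72.3%, and pairs of control libraries between 32.1% and 46.8%.

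Heavy chain segments were too rare for most of these measures. Ighv members had 457, 20, 164, 17 and 55 counts in SJQYD 1 to 5, 86, 98, 43, 575 and 50 in model 1 to 5, and 10, 13, 6, 244 and 90 in control 1 to 5. No Ighv member was seen in more than 11 libraries, and 3 were tested, Ighv6-3, Ighv1-53 and Ighv1-72, none of which was called in any comparison. Ighv6-3 was seen in all 5 model libraries, with 8 to 102 counts, in 3 SJQYD libraries and in 2 control libraries, with 11 counts each (log2 fold change 2.39 for model over control, edgeR adjusted p = 0.300). Ighv1-53 had 151 of its 255 counts in control 4, where it was 61.9% of the Ighv member counts (exact 95% interval 55.5% to 68.0%). All named Ighv genes together had 519 counts there. In control 2 all 13 member counts fell on Ighv1-58, out of 19 counts of all named Ighv genes. In control 3 all 6 fell on Ighv1-78. Ighv10-3 was seen in no control library and in 3 SJQYD and 4 model libraries. Of the 3 libraries with most Ighv counts, SJQYD 1 had an effective number of 13.7, led by Ighv1-78 at 16.0%, and model 4 had 12.7, led by Ighv6-3 at 17.7%, whereas control 4 had 4.16. Ighv1-76 was the heavy chain member seen in most libraries, 11 of 15, and Ighv3-6 peaked at 48 counts in model 4. The Ighv1 family, with 8 of the 16 members, held 60.2% ± 22.6, 50.3% ± 18.4 and 80.9% ± 30.1 of the Ighv member counts in the SJQYD, model and control groups (SD, n = 5 each).

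The constant regions show which antibody classes were present, though not which class a V segment was joined to. Igha, the heavy chain of IgA, held 97.4%, 83.9%, 85.3%, 84.5% and 80.8% of the heavy chain constant counts in SJQYD 1 to 5, 87.8%, 80.9%, 68.4%, 82.9% and 82.6% in model 1 to 5, and 81.4%, 35.6%, 62.3%, 91.4% and 39.0% in control 1 to 5. Igha had the largest count of the heavy chain constant regions in every library, but under 50% of them in control 2 and control 5. Igha averaged 692 ± 300 CPM in SJQYD mice, 682 ± 319 CPM in model mice and 143 ± 214 CPM in control mice (SD, n = 5 each), without passing the test against control (edgeR adjusted p = 0.0974 for SJQYD and 0.134 for model). Jchain, which joins IgA into dimers, averaged 119 ± 43.1, 145 ± 75.9 and 34.6 ± 50.2 CPM in the same groups, and Ighm, the heavy chain of IgM, 50.9 ± 25.9, 96.9 ± 41.8 and 22.8 ± 14.5 CPM, and neither was called. Ighd, the heavy chain of IgD on naive B cells, averaged 8.73 ± 7.10, 16.0 ± 5.76 and 5.22 ± 9.41 CPM. Of the IgG heavy chains, Ighg2b averaged 18.9 ± 11.1, 18.9 ± 9.03 and 8.11 ± 12.1 CPM and Ighg1 2.96 ± 2.52, 2.71 ± 1.01 and 2.90 ± 4.55 CPM in the same order of groups, with wide overlap and no call.

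Genes around the V segments changed in few cases. Among 16 plasma cell genes 2 rose in model mice against control, Irf4, a transcription factor needed for plasma cells, with a log2 fold change of 1.80 ± 0.43 (edgeR adjusted p = 0.0258), and Tnfrsf13b, which binds the survival factors BAFF and APRIL, with 1.58 ± 0.41 (edgeR adjusted p = 0.0368). Irf4 also rose in SJQYD mice against control, with 1.55 ± 0.43 (edgeR adjusted p = 0.0290), while Ell2, an elongation factor, fell with -0.62 ± 0.15 (edgeR adjusted p = 0.0159). Between SJQYD and model 1 of the 16 rose, Creld2, an endoplasmic reticulum protein, with 0.81 ± 0.20 (edgeR adjusted p = 0.0334). Creld2 averaged 41.3, 23.6 and 32.3 CPM in the SJQYD, model and control groups, Ell2 averaged 29.1, 31.8 and 44.7 CPM, and Irf4 averaged 2.57, 3.05 and 0.866 CPM. Of 3 genes for transcription from the octamer, a motif of V promoters, Pou2f2 rose in model mice against control by 1.45 ± 0.31 (edgeR adjusted p = 0.0140). No gene changed among 9 tested for V(D)J recombination, 13 for hypermutation and the germinal centre, or 16 B cell markers, in any of the 3 comparisons, at backgrounds of 5.07%, 2.75% and 11.1% of all genes called.

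Lymphocyte markers differed between the libraries compared here, and their part in the results was not tested. The summed level of the 16 B cell markers was 19.8 to 87.7 CPM in SJQYD mice, 67.6 to 143 CPM in model mice and 3.70 to 123 CPM in control mice, where control 2 held 123 CPM and the other control libraries at most 22.5 CPM. Cd79a, a defining marker of B cells, was at 0 in 1 control library. The 12 T cell markers ranged over 15.4 to 181, 35.0 to 269 and 7.28 to 122 CPM in the same groups, and 8 lymph node markers over 7.95 to 102, 23.1 to 218 and 9.51 to 77.2 CPM. None of these markers was called in any comparison. The B cell and lymph node lists share 2 genes, so their sums are not independent. Control 2, the control library highest in B cell, T cell and lymph node markers, had 201 V counts, and control 4, with 7.42, 7.28 and 12.5 CPM for the B cell, T cell and lymph node sums, had 2222. Of the 7 plasma cell markers, all of them also among the 16 plasma cell genes, none was called. Their sum was 247 to 329, 173 to 361 and 143 to 237 CPM in the SJQYD, model and control groups. Derl3 weighed heavily in this sum, which is therefore a poor guide to antibody RNA. Control 3, at 210 CPM, had 8174 Derl3 and 140 Jchain counts, and model 5, at 173 CPM, had 6495 and 3352. Markers of neighbouring tissues were uneven too, with the parotid gene Bpifa2 between 2.08 and 14864 CPM in SJQYD mice, 87.8 and 53990 CPM in model mice and 42.8 and 22869 CPM in control mice. None of 6 parotid and none of 3 tested sublingual gland markers was called in any comparison. The gene Prol1 is in both the parotid and the submandibular list. Sums of 4 sublingual markers were 12.2 to 6611, 261 to 4022 and 2016 to 5639 CPM in the SJQYD, model and control groups. The highest were SJQYD 1, model 4 and control 4, which also had the most V counts of their groups. SJQYD 5, the lowest at 12.2 CPM, had more V counts (1914) than SJQYD 2 (685). The relation was seen afterwards and was not tested. SJQYD 1 had 99586 CPM of submandibular markers, the other SJQYD libraries 354900 to 558896 CPM. Of 8 submandibular gland markers 1 fell in model mice against control, and of 5 tested muscle markers 2 rose in model mice and 2 in SJQYD mice against control.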

How the data were processed

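RNA of the submandibular gland from 15 mice was read as strand-marked, oligo-dT selected libraries with molecular identifiers, per the labels' protocols. The submitters' processing notes give the build as mm9 and list HISAT2 2.0.4 and cutadapt 1.9, besides UMI-tools and StringTie 1.3.4d. The V gene positions in the deposited FPKM table equal those of GENCODE M21 on GRCm38 for all 180 genes, so GRCm38 was used for coordinates. The authors deposited gene counts per library, which were tested as they stand, and FPKM, which are the authors' values per length and depth. How reads common to several V segments were counted is not given in the sources used here.

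Counts of all genes and libraries were fitted with edgeR 4.0.16 (TMM, filterByExpr by group, robust quasi-likelihood, 3 groups of 5) in R 4.3.3, with Benjamini-Hochberg adjustment over 18136 genes and a threshold of 0.05. CPM are on TMM-adjusted library sizes. Shares, diversity and overlap were computed from counts with Python 3.11.15 and pandas 2.3.3, exact (Clopper-Pearson) intervals with scipy 1.17.1 and alignments with Biopython 1.88, and carry no test. The fit was tested on simulated data. Alternatives were DESeq2 1.42.0, limma 3.58.1 on log2(FPKM + 1) or log2(FPKM + 0.1) for genes with 0.5 FPKM in 5 libraries, other scalings and filters, and leaving out each library. The members and gene lists were chosen with earlier results of these data known. Segments named were the 8 with the highest mean share in Ighv and in Igkv, all Iglv, the most used member in each library, the called ones with the largest changes and those nearest the count threshold.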

Additional observations from a re-analysis of the deposited data

Results flagged for a closer look

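Libraries that stood far from the other 4 of their group were looked for in 105 sets of values, by the gap to the nearest library as a share of the group's range. In 23 sets a library passed the 95% critical value of 0.71. Segment levels account for 21 of them. Each is a high value, and the sets share libraries. The critical value assumes normally distributed values, whereas many of these sets hold zeros. The segments also included the most used member of each library, picked for being high there. The number of flags is therefore not set against a chance rate.

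In the SJQYD group, SJQYD 1 had 97.4% Igha among heavy chain constant counts and 4.73 CPM of Igkv8-21, and SJQYD 3 had 4.24 CPM of Igkv15-103. In the model group every such value came from model 4, the library with the most V counts. It had 8.86 CPM of Ighv in all and 0.755 Ighv counts per 100 heavy chain constant counts. Among its segments, Ighv1-58 stood at 0.801 CPM, Ighv1-76 at 0.801 CPM, Ighv3-6 at 0.739 CPM and Ighv6-3 at 1.57 CPM. Its Igkv10-95 stood at 1.08 CPM, Igkv10-96 at 3.93 CPM and Igkv8-24 at 7.60 CPM.

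In the control group, control 4 had 2.83 CPM of Ighv1-53, 5.01 CPM of Igkv1-110, 3.30 CPM of Igkv1-117, 2.50 CPM of Igkv17-127 and 4.02 CPM of Iglv1. Control 5 had 0.391 CPM of Ighv3-6, 3.52 CPM of Igkv12-44, 2.14 CPM of Igkv5-45, 0.823 CPM of Iglv2 and 0.350 CPM of Iglv3. Control 2 had 0.234 CPM of Ighv1-58, seen in no other control library.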

How the results depend on the processing

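Fold changes of single segments and medians over segments were labelled together under alternatives. Of these values 424 were labelled the same, 50 lost the call, 22 gained it and 5 turned. For single segments the same meant direction and side of the threshold. For medians, 76 of the 424, it meant a shift smaller than the median SE of the segments. All 5 values that turned were medians. Where no cause is named, it was not tested. The median log2 fold change of the segments between SJQYD and model turned to 0.24 with the replicate block, 0.0074 with log2(FPKM + 1), 0.021 with log2(FPKM + 0.1), 0.013 with log2(FPKM + 1) unfiltered and 0.58 without model 4, the top of a range from -0.47 leaving out 1 library. Segments called between model and control, 3 in the report, numbered 7 with DESeq2, 1 with the compared groups alone, 6 and 12 with the filtered FPKM fits (pseudocounts 1 and 0.1), 1 without control 2 and control 3 (chosen after seeing the data) and 0 to 4 leaving out 1 library. Between SJQYD and control, 4 in the report, they numbered 9 and 13 with those FPKM fits, 2 without control 2 and control 3, 1 without control 2, model 3 and SJQYD 1 (also chosen after seeing the data) and 1 to 6 leaving out 1 library. DESeq2 gave no adjusted p for Igkv4-79 and Igkv9-124 there.

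All genes called between model and control numbered 920 (466 higher, 454 lower), against 1779 with DESeq2, 466 with the compared groups alone, 1447 (1407 higher, 40 lower), 1958 (1915 and 43) and 555 (516 and 39) with FPKM at pseudocount 1, 0.1 and unfiltered, 1507 without control 2, model 3 and SJQYD 1, and 354 to 1799 leaving out 1 library. Between SJQYD and model they numbered 498 (346 and 152), against 1072 with DESeq2, 68 (45 and 23), 57 (34 and 23) and 48 (29 and 19) with FPKM, 186 without those 3 libraries and 333 to 527 leaving out 1. Between SJQYD and control they numbered 2017 (947 and 1070), against 3626 (3538 and 88), 4046 (3955 and 91) and 2003 (1910 and 93) with FPKM, and 1240 to 2626 leaving out 1. Over all genes the log2 fold change had a median of 0.28 and 0.45 in the filtered FPKM fits, against 0.03 in the count fit, for model over control, and 0.33 and 0.54, against 0.04, for SJQYD over control.

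The mean effective number of Igkv segments, 25.9 for SJQYD, 26.5 for model and 15.6 for control, was 14.8, 14.6 and 8.35 with segments of 50 counts in 3 libraries, 19.87, 19.98 and 11.56 as inverse Simpson index, and 31.9, 32.9 and 24.7 as segments expected at 150 counts. It ranged over 25.0 to 26.6, 25.2 to 27.8 and 13.5 to 18.8 leaving out 1 library. For Ighv, 7.33, 7.64 and 3.29 became 19.5, 20.5 and 8.57 with all named segments, and 13.7 for SJQYD and 8.30 for control as segments expected at 60 counts, with ranges of 5.74 to 8.23, 6.39 to 8.60 and 2.28 to 3.86. No Ighv member had 50 counts in 3 libraries. With that minimum the median Igkv overlap was 54.2% for SJQYD and control, 66.4% within SJQYD and 70.5% within model.

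The main fit did not pair samples by replicate number. The deviations of same-numbered libraries correlated at -0.32 to 0.25, over 0.1 in 4 of 15 pairs, and at 0.15 to 0.25 among the libraries numbered 4. Differently numbered libraries were not compared, so these values do not settle whether the numbers pair the samples. With the number as a block, 896, 401 and 1799 genes and 2, 0 and 5 segments were called for model over control, SJQYD over model and SJQYD over control. Depth limits all segments: 366 of 1020 values were 0.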
